A study of Mus musculus with 18 samples.

Results

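The regions described here are the open-chromatin regions of 8 genes that mark aerocytes: Car4, Ednrb, Apln, Tbx2, Fibin, Prx, Igfbp7 and Cyp4b1. Overlapping peaks (1 bp or more) of all 18 samples were merged, and merged regions seen in only 1 sample were dropped, which left 47338 regions. A region was given to one of the 8 genes when the RefSeq transcription start site (TSS) nearest to its midpoint belonged to that gene, or when it lay in the gene body. This gave 50 of the 47338 regions: 13 for Igfbp7, 10 for Ednrb, 6 each for Car4 and Apln, 5 for Tbx2, 4 for Prx and 3 each for Fibin and Cyp4b1.

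Aerocytes are one of the capillary endothelial cell types of the lung alveolus. Each spreads a wide, thin sheet along the air spaces, where oxygen and carbon dioxide cross between air and blood. The same vessels hold general capillary cells, which can divide and give rise to both cell types after loss. ATAC-seq marks DNA that is open to the Tn5 transposase, and open regions near a gene include its promoter and candidate distal regulatory regions, although the nearest gene is not always the one regulated.

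Endothelial cells were sorted from the lungs of 18 FVB mice, female and male, all of which carried a Col1α1-GFP reporter that labels collagen-producing cells. The sort kept CD31+ cells that were DAPI-, CD45-, CD326- and GFP-. Young mice were aged 2 months and Aged mice 18 months, and each received intratracheal bleomycin at about 1 U/kg (Bleo) or PBS (Sham) 30 days before collection. Of the Young mice 5 were Sham and 4 Bleo, and of the Aged mice 4 were Sham and 5 Bleo, each mouse its own library. The sort takes all CD31+ lung endothelium, so fewer aerocytes and less open chromatin per aerocyte cannot be told apart in these bulk samples.

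A region is called in a sample when a peak of that sample overlaps it, so a region that is not called can still hold reads below the peak threshold. Strength is the share, from 0 to 100, of the 47338 regions that have a lower fold enrichment in the same list, and is 0 where there is no peak. Since a sample with fewer peaks has more regions at 0, its called regions start at a higher strength: in Aged Bleo 4 only 43.0% of all regions were called, against 80.4% in Aged Bleo 2. Regions are named by gene and by the distance of their midpoint from the TSS, with a minus sign for upstream.

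The peak lists held between 21050 peaks (Aged Bleo 4) and 40883 peaks (Aged Bleo 2). The file names carry a code written as a lane, and the labels do not say what it marks. Lane 8 had the 5 Young Sham libraries with Young Bleo 4, lane 7 the other 3 Young Bleo libraries with 3 of Aged Sham, and lane 6 the last Aged Sham library with the 5 Aged Bleo. No Aged sample shared a lane with Young Sham, and no Aged Bleo sample one with Young Bleo, so in those comparisons an effect of age and one of lane cannot be told apart. Bleomycin was also largely tied to lane. Of the Young Bleo samples only Young Bleo 4 shared a lane with Young Sham, and of the Aged Sham samples only Aged Sham 4 shared one with Aged Bleo. An effect of bleomycin and one of lane thus rest on 1 shared library at each age to be told apart. Promoters of 4 of 5 endothelial markers (Cdh5, Erg, Tie1 and Cldn5) had a peak in all 18 samples and that of Pecam1 in 17. No promoter of the 3 leukocyte markers (Ptprc, Cd3e and Lyz2) or of the 4 epithelial markers (Epcam, Sftpc, Scgb1a1 and Ager) had a peak in any sample. Of the fibroblast markers Pdgfra had a promoter peak in all 18 samples and Col1a1 and Col1a2 in none. Of the mural cell markers Myh11 had one in all 18 and Pdgfrb and Cspg4 in none. The lymphatic markers Flt4, Prox1 and Lyve1 had a promoter peak in 18, 17 and 7 samples, and the summed strength of the 3 ran from 110.0 to 153.0 in Young Sham, 113.1 to 161.6 in Young Bleo, 123.5 to 184.9 in Aged Sham and 67.0 to 138.3 in Aged Bleo. The part of these cells in the results was not tested.

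The 50 regions were more often distal than not. Of these, 6 lay in a promoter (from 1000 bp before a TSS to 100 bp after it), 1 in a coding exon, 3 in a UTR, 17 in an intron and 23 between genes. The median distance to the TSS was 19529 bp, against 12628 bp for all 47338 regions, and 14 of the 50 lay upstream of their own TSS. Widths ran from 187 to 1164 bp, with a median of 454 bp against 440 bp for all regions. A peak was present in all 18 samples in 15 of the 50 regions (30%), against 36.8% of all regions. Only 2 samples had a peak in 10 of the 50 (20%), against 8.20% of all regions. The median of mean strength was 30.4, against 39.8 for all regions.

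**Figure D1:**
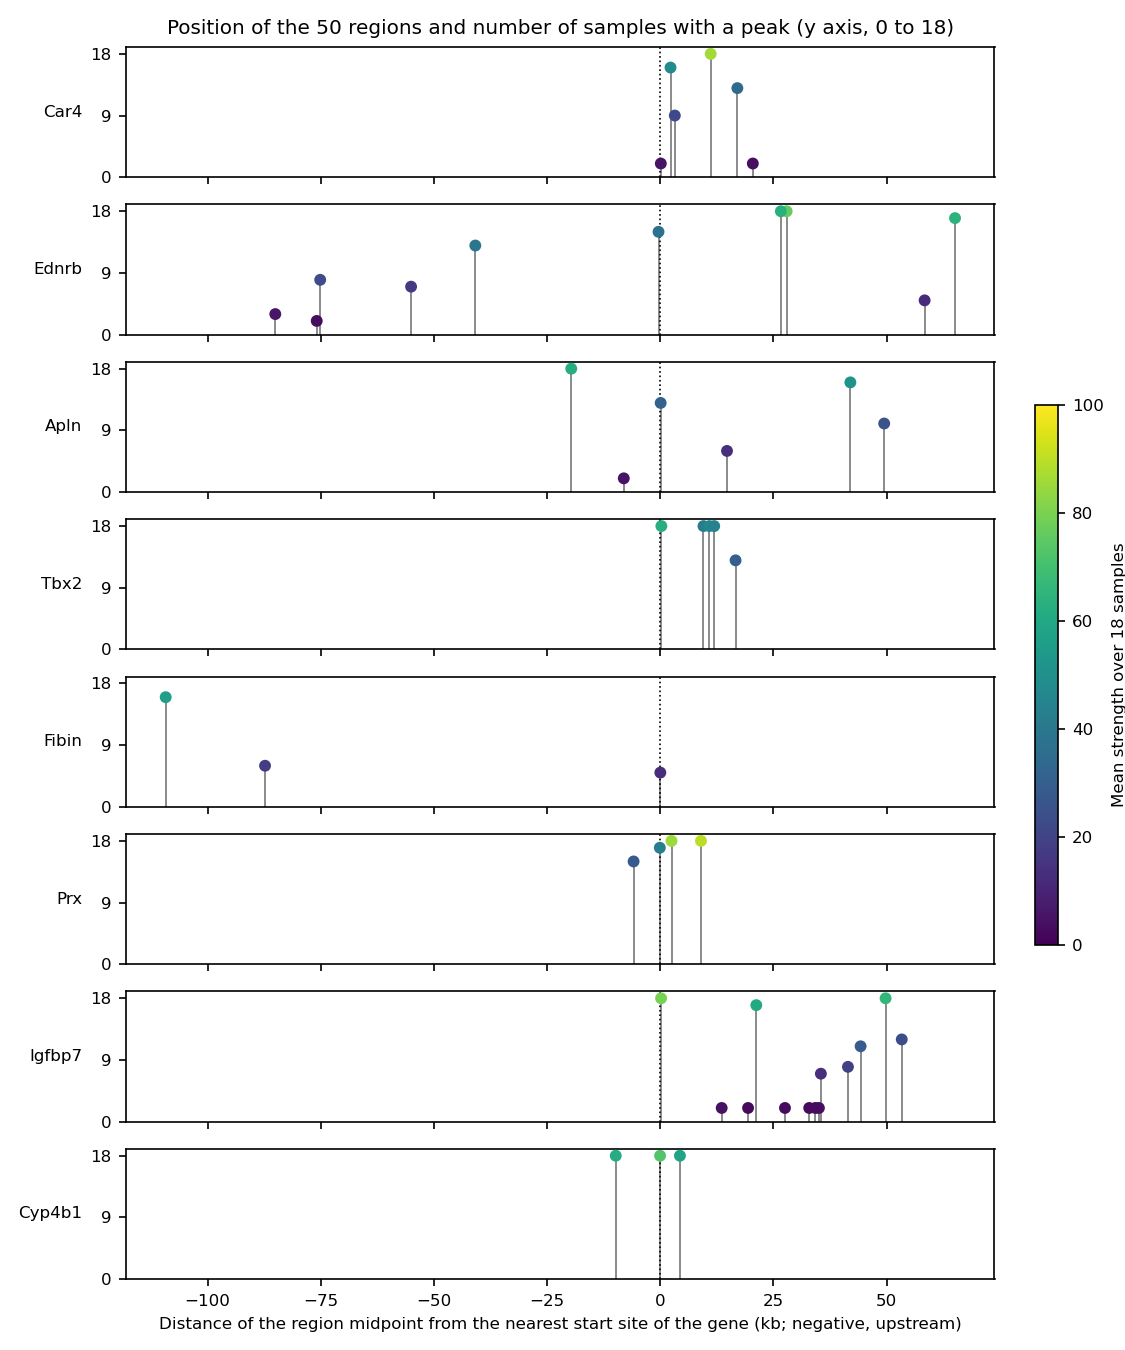
Position of the 50 regions relative to the TSS of their gene (horizontal axis, kb) by gene, with the number of the 18 samples in which each region was called (vertical axis) and the mean strength as colour. Fibin and Ednrb had their most distant regions at -109.2 kb and -85.0 kb upstream, and the 13 Igfbp7 regions lay from 179 bp to 53.3 kb downstream of its TSS.

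The genes differed in how often their regions were called. All 3 Cyp4b1 regions were called in all 18 samples, as were 4 of 5 Tbx2 regions and 2 of 4 Prx regions. The only Car4 region and the only Apln region called in all 18 lay outside the promoter, at +11.1 kb and -19.7 kb. No Fibin region was called in all 18, and 6 of the 13 Igfbp7 regions were called in 4 samples or fewer.

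**Figure D2:**
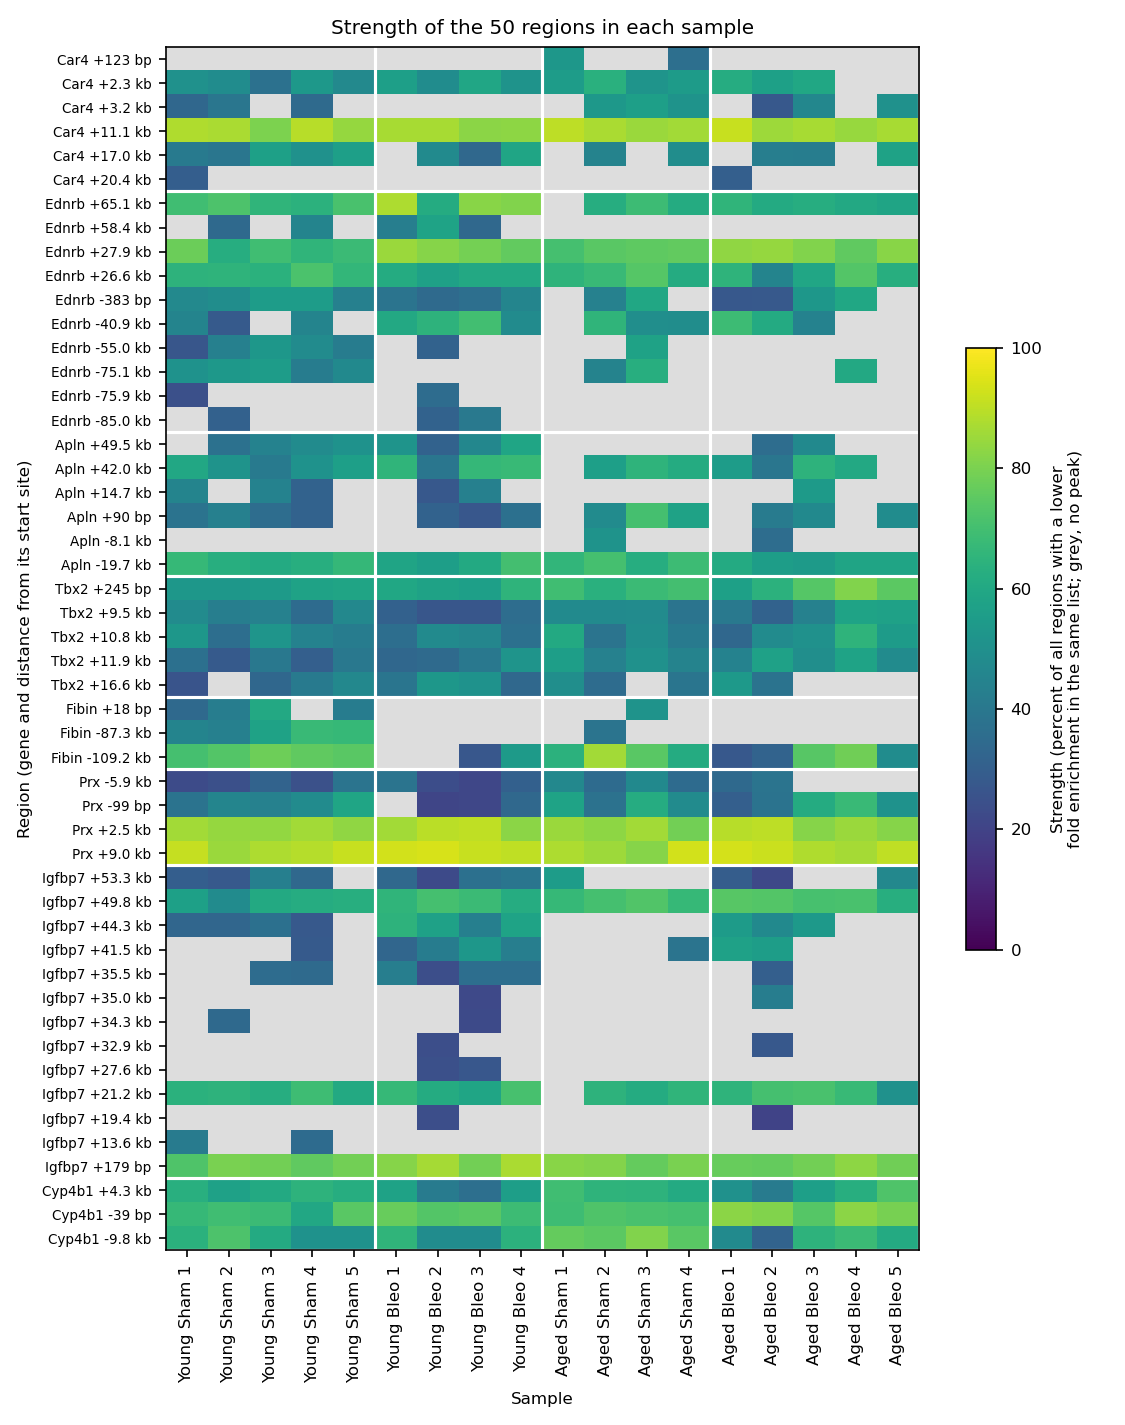
Strength (0 to 100, colour) of the 50 regions (rows, grouped by gene) in each of the 18 samples (columns, by group), with grey cells where no peak was called. Fibin -87.3 kb was called in all 5 Young Sham samples and otherwise only in Aged Sham 2.

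The number of the 50 regions called was 38, 37, 35, 39 and 30 in Young Sham, 29, 39, 38 and 32 in Young Bleo, 22, 31, 29 and 29 in Aged Sham, and 29, 37, 29, 22 and 23 in Aged Bleo. The means were 35.8 ± 3.56 (SD, n = 5), 34.5 ± 4.8 (n = 4), 27.8 ± 3.95 (n = 4) and 28.0 ± 6.0 (n = 5). These counts moved with the length of the lists, and in 14 of 18 samples the share of the 50 regions called was below the share of all regions called. When the 21050 peaks with the highest -log10 p were kept in each list, 30 of the 50 regions remained among 27854 regions, and 15 to 22 of them were called per sample, with 16 to 20 in Young Sham and 15 to 22 in Aged Bleo. That was 50% to 73.3% of the 30, against 71.4% to 74.8% of the 27854.

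**Figure D3:**
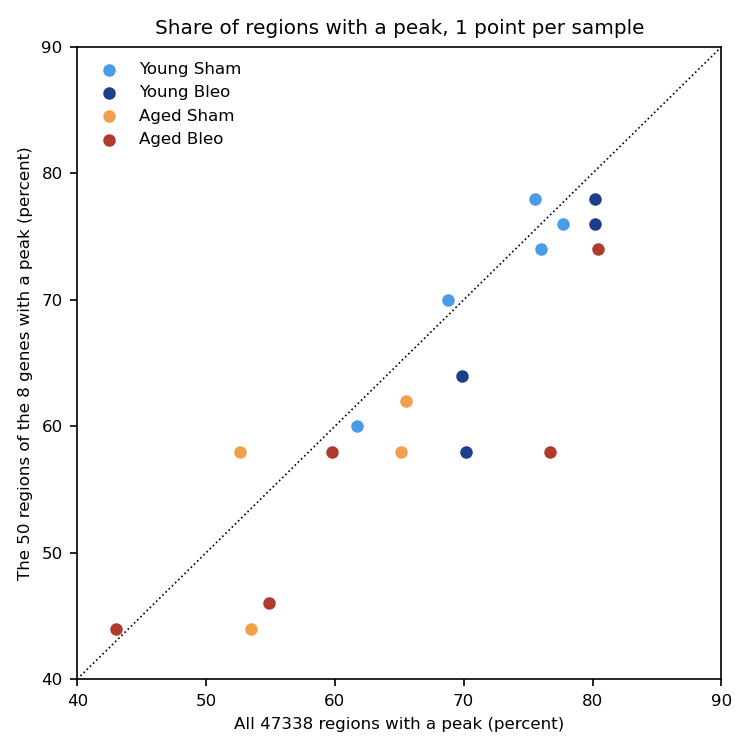
Share of all 47338 regions with a peak (horizontal axis, percent) against the share of the 50 regions of the 8 genes with a peak (vertical axis, percent), 1 point per sample coloured by group; the dotted line marks equal shares. In 14 of 18 samples the point lies below the line.

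Each comparison was tested in 2 ways over all 47338 regions: presence by Fisher's exact test, two-sided, of samples with and without a peak (called at an unadjusted p of 0.05 or less), and strength by limma (called at a Benjamini-Hochberg adjusted p of 0.05 or less). Presence calls are descriptive, since no region of the 47338 reached an adjusted p of 0.05 in any comparison: the smallest p that these group sizes allow, 0.00794, gave a smallest adjusted p of 0.786, 0.535, 1.00, 1.00 and 1.00 for Aged Sham against Young Sham, Young Bleo against Young Sham, Aged Bleo against Young Sham, Aged Bleo against Aged Sham and Aged Bleo against Young Bleo. Comparisons with Young Sham share the Young Sham samples. Of the called regions, Fibin -87.3 kb and Fibin +18 bp had a peak in only 1 sample outside Young Sham. They are counted among the regions called less often or lower in strength, so those counts depend in part on the filter of 2 samples. Some counts at an unadjusted p hold further regions that passed the filter only through 1 group, and these are named with the counts.

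Aged Sham was compared with Young Sham to ask what age does without injury. Of the 50 regions 4 were called less often in Aged Sham (8.0%, against 4.90% of all regions) and 0 more often (against 0.264%). Without any 1 of the 9 samples only 0 or 1 of the 50 differed in presence. In lists of 21050 peaks 0 of the 30 retained regions were called less often (against 1.56% of all 27854 regions) and 1 more often (against 1.38%). In strength 1 region was lower (2.00%, against 1.57% of all regions) and 0 higher (against 0.351%). At an unadjusted limma p of 0.05 or less 4 were lower (against 10.2% of all regions) and 5 higher (against 4.02%). The 1 lower region, Fibin -87.3 kb, is also among the 4 lower at an unadjusted p and among the 4 called less often. It passed the filter of 2 samples only through Young Sham. Car4 +123 bp, among the 5 higher, passed that filter only through Aged Sham. The median strength difference of the 50 was 0.00, against -0.85 over all regions.

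Young Bleo was compared with Young Sham to ask what injury does in young mice. There were 4 regions called less often in Young Bleo (8.0%, against 1.96% of all regions) and 1 more often (2.00%, against 3.98%). Without 1 sample at a time 2 to 4 regions differed in presence, fewest without Young Sham 1, 2, 3 or 5 or Young Bleo 1, 3 or 4. In lists of 21050 peaks 3 of the 30 were called less often (against 3.20% of all 27854 regions) and 4 more often (against 3.69%). Igfbp7 +44.3 kb, among the 4, passed the filter of 2 samples there only through Young Bleo. Strength was lower in 2 (4.00%, against 1.74%) and higher in 1 (2.00%, against 1.86%). At an unadjusted limma p of 0.05 or less 8 were lower (against 7.95% of all regions) and 8 higher (against 9.28%). The lower regions include Fibin -87.3 kb in both counts and Fibin +18 bp in the second. Both are also among the 4 called less often, and both passed the filter of 2 samples only through Young Sham. Igfbp7 +27.6 kb, among the 8 higher, passed it only through Young Bleo. The median strength difference was 1.51, against 0.00 over all regions.

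Aged Bleo was compared with Young Sham, as age and injury together. There were 4 regions called less often in Aged Bleo (8.0%, against 3.01% of all regions) and 0 more often (against 0.201%). In lists of 21050 peaks 0 of the 30 were called less often (against 1.97% of all 27854 regions) and 1 more often (against 1.10%). Strength was lower in 2 (4.00%, against 2.95%) and higher in 5 (10%, against 1.08%). At an unadjusted limma p of 0.05 or less 6 were lower (against 14.7% of all regions) and 5 higher (against 6.88%). The lower regions include Fibin -87.3 kb in both counts, and Fibin +18 bp and Igfbp7 +13.6 kb in the second. All of these passed the filter of 2 samples only through Young Sham. Fibin -87.3 kb and Fibin +18 bp are also among the 4 called less often. The median strength difference was -3.53, against -1.23 over all regions, so the 5 higher regions stood beside a median below 0. The 7 strength calls (against 4.03% of all regions in either direction) came to 2 without Young Sham 2 and 4 without Young Sham 1. Ranked among called regions only, 6 of the 50 were called (against 6.57%), and ranked by -log10 p, 4 (against 6.08%). Of the 5 higher regions only Tbx2 +245 bp kept its call when ranked among called regions only.

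The other comparisons gave few calls. Between Aged Bleo and Aged Sham 0 of the 50 regions differed in presence (against 0.885% of all regions in either direction) or by limma in strength (against 0.129%). At an unadjusted limma p of 0.05 or less, however, 4 were lower (against 5.29% of all regions) and 3 higher (against 3.88%). Car4 +123 bp, among the 4 lower, passed the filter of 2 samples only through Aged Sham. Between Aged Bleo and Young Bleo 2 regions were called less often in Aged Bleo (4.00%, against 2.44%) and 0 more often (against 0.123%), which left 0 or 1 without any 1 sample. By limma 0 differed in strength (against 0.978%), with 6 lower (against 9.16%) and 6 higher (against 3.87%) at an unadjusted limma p of 0.05 or less. Igfbp7 +27.6 kb and Ednrb -85.0 kb, among the 6 lower, passed the filter of 2 samples only through Young Bleo. The difference between the bleomycin response of Aged and of Young mice was called by limma in 0 of the 50 regions (against 0.228% of all regions), with 2 lower (against 3.66%) and 2 higher (against 4.05%) at an unadjusted limma p of 0.05 or less. Fibin -87.3 kb, among the 2 higher, passed the filter of 2 samples only through Young Sham. In all, 15 of the 50 regions were called by at least 1 test in at least 1 comparison, 2 by both, and 35 by neither. Over all 47338 regions 15.1% were called by at least 1 test and 4.35% by both.

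**Figure D4:**
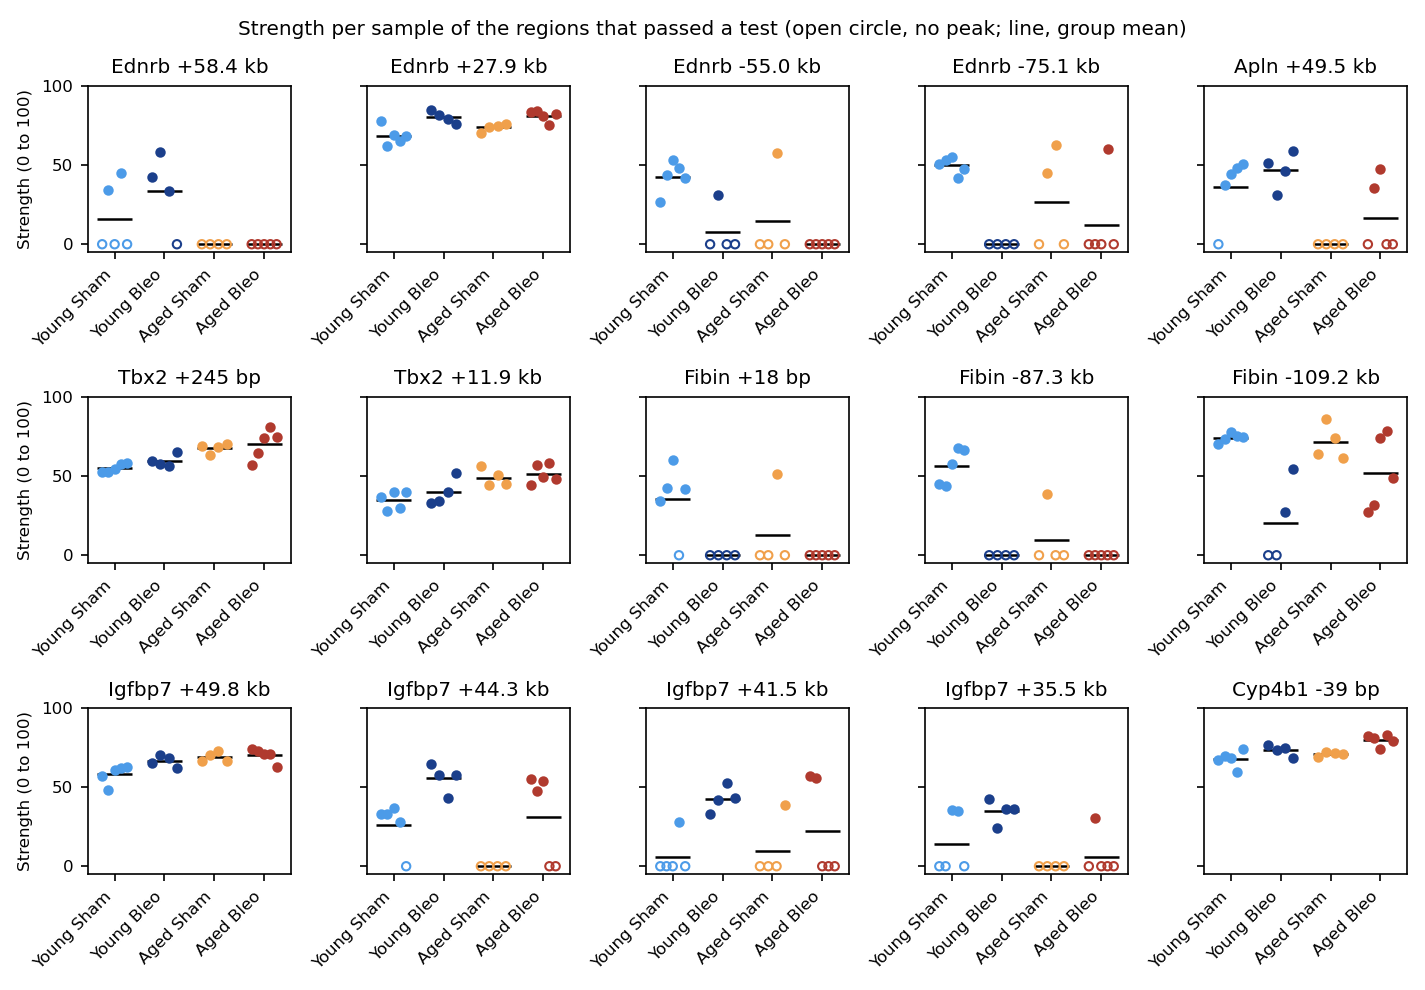
Strength (vertical axis, 0 to 100) of the regions called in at least 1 comparison, 1 point per sample by group with the group mean as a line, and open circles at 0 where no peak was called. The Fibin -87.3 kb points of all 4 Young Bleo and all 5 Aged Bleo samples lie at 0, below the 5 Young Sham points.

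Ednrb encodes the endothelin receptor type B, a G protein-coupled receptor for endothelins and an established aerocyte marker. Its 10 regions lay between chr14:103778136-103779031 and chr14:103929374-103929655. Upstream of the gene, the -55.0 kb region (chr14:103899260-103899779, between genes) and the -75.1 kb region (chr14:103919426-103919761, between genes) were each called in all 5 Young Sham samples. The sequences of both are shown because they are the 2 Ednrb regions called less often than in Young Sham. Each is 200 bases around the summit on the plus strand of the mm10 reference, and capitals mark a match to CAGGAAG, the core bound by ERG and other ETS factors, here on the minus strand.
Ednrb -55.0 kb window (chr14:103899285-103899484): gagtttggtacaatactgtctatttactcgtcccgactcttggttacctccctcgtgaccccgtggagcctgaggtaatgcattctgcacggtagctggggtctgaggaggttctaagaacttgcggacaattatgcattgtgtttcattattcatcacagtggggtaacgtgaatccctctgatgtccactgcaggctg
Ednrb -75.1 kb window (chr14:103919518-103919717): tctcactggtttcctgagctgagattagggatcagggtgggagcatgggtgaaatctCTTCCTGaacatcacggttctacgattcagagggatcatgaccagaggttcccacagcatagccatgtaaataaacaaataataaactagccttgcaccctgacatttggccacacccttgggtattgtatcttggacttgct

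At Ednrb -55.0 kb the strength was 26.8, 43.5, 53.0, 48.3 and 42.0 in Young Sham, on 10, 17, 18, 17 and 11 fragments at the summit. It was 31.4 in Young Bleo 2 and 57.5 in Aged Sham 3, and no other Young Bleo, Aged Sham or Aged Bleo sample had a peak. Presence was lower in Aged Bleo (0 of 5 against 5 of 5, Fisher's exact p = 0.00794), and in Young Bleo and Aged Sham (1 of 4 each, exact p = 0.0476). Strength fell in Aged Bleo by 42.7 ± 9.8 (SE; limma, adjusted p = 0.0227), and that call was lost without Young Sham 2, 3 or 4 (differences of -42.5, -40.2 and -41.3, adjusted p up to 0.0555). It was also lost with peaks of a -log10 q of at least 5 (-35.6, adjusted p = 0.0788) or a fold enrichment of at least 5 (-33.4, adjusted p = 0.0836). The presence calls for Young Bleo and Aged Sham were lost (exact p up to 0.143) without any 1 sample other than Young Bleo 2 and Aged Sham 3 respectively. They were lost too at either of those minimums (exact p = 0.206). Where peaks had to cover 50% of a region, all 3 presence calls were lost (exact p = 0.167). The region was no longer one of the retained regions with 21050 peaks in each list.

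At Ednrb -75.1 kb the strength was 50.9, 53.5, 55.4, 42.1 and 47.6 in Young Sham and 0 in all 4 Young Bleo samples, including Young Bleo 4 from the Young Sham lane. Aged Sham had 0, 44.9, 62.7 and 0, and Aged Bleo had a peak only in Aged Bleo 4 (60.3). Young Bleo and Young Sham did not overlap, whereas the called Aged samples lay within or above the Young Sham range. Presence was lower in Young Bleo (0 of 4 against 5 of 5, Fisher's exact p = 0.00794) and in Aged Bleo (1 of 5, exact p = 0.0476), and the strength difference did not pass (Young Bleo minus Young Sham -49.9, limma adjusted p = 0.0532). With 21050 peaks in each list the region was called only in 1 Aged Sham and 1 Aged Bleo sample, so that its Aged Bleo difference turned direction.

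The strongest Ednrb region outside its promoter, +27.9 kb (chr14:103815480-103816085), overlaps the UTR at the end of the gene. Its strength was 77.7, 62.3, 69.3, 65.5 and 68.3 in Young Sham and 85.1, 81.7, 79.0 and 75.9 in Young Bleo, with 70.5, 74.4, 75.0 and 76.1 in Aged Sham and 83.3, 84.1, 81.1, 75.5 and 82.1 in Aged Bleo. Each Bleo group overlapped Young Sham only through Young Sham 1. Strength rose by 11.8 ± 2.9 in Young Bleo (limma, adjusted p = 0.0363) and by 12.6 ± 2.8 in Aged Bleo (adjusted p = 0.0182). With 21050 peaks in each list the differences were 19.9 (adjusted p = 0.0221) and 21.3 (adjusted p = 0.0107), and ranked among called regions only they did not pass (17.8, adjusted p = 0.177, and 11.4, adjusted p = 0.297). Ranked by -log10 p, the Aged Bleo rise of 7.4 did not pass (adjusted p = 0.0787). With a replicate block the Young Bleo rise did not pass. The Young Bleo call was lost without any of Young Sham 2 to 5 or Young Bleo 1 to 3 (differences of 10.2 to 12.2, adjusted p up to 0.110), and the Aged Bleo call without Young Sham 2 (11.0, adjusted p = 0.0522).

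The Ednrb promoter region (-383 bp, chr14:103843515-103844653) was called in all Young Sham and Young Bleo samples, in Aged Sham 2 and 3, and in Aged Bleo 1 to 4. Its strength was 43.5 to 55.2 in Young Sham and 34.4 to 45.5 in Young Bleo, and the called Aged samples ran from 27.5 to 59.5. The +58.4 kb region (chr14:103785142-103785461, between genes) was called in Young Sham 2 and 4 and in Young Bleo 1 to 3, with strengths of 33.8 to 58.0, and in no Aged sample. It was called less often in Aged Bleo than in Young Bleo (0 of 5 against 3 of 4, Fisher's exact p = 0.0476), which was lost without any 1 sample other than Young Bleo 4 (exact p up to 0.143). It was not retained with 21050 peaks in each list. The other 5 Ednrb regions passed neither test in the full lists: +65.1 kb and +26.6 kb were called in 17 and 18 samples, -40.9 kb in 13, and -75.9 kb and -85.0 kb in 2 and 3 samples, none of them Aged. In lists of 21050 peaks -40.9 kb was called in 3 of 4 Young Bleo against 0 of 5 Young Sham samples (Fisher's exact p = 0.0476).

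Apln encodes apelin, the secreted ligand of the receptor Aplnr, which general capillary cells express. Its 6 regions lay between chrX:47985225-47985542 and chrX:48054096-48054929. The +49.5 kb region (chrX:47985225-47985542, between genes, downstream of Apln) is the 1 Apln region called by a test in the full lists, and its summit window is shown with the 250 bases before the Apln TSS. The Apln promoter is on the minus strand of the X chromosome (chrX:48034854-48035103) and is printed in the direction of the gene, with its match to CAGGAAG on the other strand in capitals, at position -113 from the TSS.
Apln +49.5 kb window (chrX:47985321-47985520): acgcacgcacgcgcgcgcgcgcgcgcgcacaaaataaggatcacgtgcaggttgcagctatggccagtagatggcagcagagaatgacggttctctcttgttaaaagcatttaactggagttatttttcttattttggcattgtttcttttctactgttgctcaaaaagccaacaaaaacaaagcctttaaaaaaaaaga
Apln promoter: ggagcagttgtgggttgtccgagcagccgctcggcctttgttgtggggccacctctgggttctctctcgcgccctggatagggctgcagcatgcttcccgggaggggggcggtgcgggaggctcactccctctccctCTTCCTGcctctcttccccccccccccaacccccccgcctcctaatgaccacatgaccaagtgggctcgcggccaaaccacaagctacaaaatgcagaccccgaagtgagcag

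At Apln +49.5 kb the strength was 0, 37.3, 44.4, 48.3 and 50.8 in Young Sham, 51.6, 31.4, 46.2 and 58.9 in Young Bleo, and 35.6 and 47.4 in Aged Bleo 2 and 3. No Aged Sham sample and none of Aged Bleo 1, 4 and 5 had a peak. Presence was lower in Aged Sham (0 of 4 against 4 of 5 in Young Sham, Fisher's exact p = 0.0476). Peaks rested on 11 to 21 fragments at the summit. The call was lost (exact p up to 0.143) without any 1 sample other than Young Sham 1, and with 21050 peaks in each list the region was not retained.

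The Apln promoter region (+90 bp, chrX:48034426-48035099) was called in 13 samples: all Young Sham but Young Sham 5, all Young Bleo but Young Bleo 1, Aged Sham 2 to 4 and Aged Bleo 2, 3 and 5. Its strength in called samples was 31.4 to 43.5 in Young Sham, 27.1 to 36.8 in Young Bleo, 48.3 to 70.5 in Aged Sham and 41.5 to 48.6 in Aged Bleo. It passed no test. The strongest Apln region, -19.7 kb (chrX:48054096-48054929, between genes), was called in all 18 samples at 61.2 to 67.0 in Young Sham, 55.9 to 70.0 in Young Bleo, 62.4 to 70.7 in Aged Sham and 54.4 to 61.1 in Aged Bleo. Aged Bleo lay below Aged Sham without overlap, and the difference of -9.3 ± 2.7 did not pass over all regions (limma, adjusted p = 0.274). The other 3 Apln regions passed neither test in the full lists. In lists of 21050 peaks -19.7 kb was called in 1 of 4 Young Bleo against 5 of 5 Young Sham samples, and +42.0 kb in 3 of 4 against 0 of 5 (Fisher's exact p = 0.0476 for each).

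Tbx2 encodes a T-box transcription factor that is active in aerocytes. The region at its TSS (+245 bp, chr11:85832278-85833441) also spans the TSS of 2610027K06Rik, a noncoding RNA gene transcribed in the opposite direction, so that the 2 promoters share it. Its strength was 52.9, 52.9, 54.4, 57.7 and 58.3 in Young Sham and 56.9, 64.4, 73.8, 81.0 and 74.7 in Aged Bleo, with 56.5 to 65.1 in Young Bleo and 63.3 to 70.2 in Aged Sham. All Aged Sham samples and 4 of 5 Aged Bleo samples lay above every Young Sham sample. Strength rose by 14.9 ± 3.6 in Aged Bleo (limma, adjusted p = 0.0318), also with 21050 peaks in each list (adjusted p = 0.0354) and by 15.5 when ranked among called regions only (adjusted p = 0.00977). The call was lost without any of Young Sham 1 to 4 or Aged Bleo 3 to 5 (differences of 12.2 to 15.5, adjusted p up to 0.0792).

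The Tbx2 +11.9 kb region (chr11:85844114-85844952, between genes, downstream of Tbx2) was called in all 18 samples, and its summit window is shown because it is the distal Tbx2 region that rose. It holds none of the 8 motifs searched.
Tbx2 +11.9 kb window (chr11:85844202-85844401): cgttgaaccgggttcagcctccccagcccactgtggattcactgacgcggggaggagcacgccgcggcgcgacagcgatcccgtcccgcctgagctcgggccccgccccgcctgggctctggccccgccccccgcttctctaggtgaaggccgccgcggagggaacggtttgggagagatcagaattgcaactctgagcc

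Strength at Tbx2 +11.9 kb was 36.9, 28.2, 40.2, 30.1 and 39.9 in Young Sham, 33.3, 34.5, 40.2 and 51.8 in Young Bleo, 56.1, 44.1, 50.5 and 44.8 in Aged Sham and 44.5, 57.2, 49.6, 58.2 and 48.3 in Aged Bleo. Every Aged sample lay above every Young Sham sample. The rise of 16.5 ± 4.0 in Aged Bleo passed (limma, adjusted p = 0.0325), also with 21050 peaks in each list (24.1, adjusted p = 0.0299), but not when ranked among called regions only (10.2, adjusted p = 0.403) or with a fold enrichment of at least 5 (adjusted p = 0.231). With a replicate block the rise did not pass either. It was lost without any of Young Sham 1, 2 and 4 or Aged Bleo 2 and 4 (differences of 14.8 or more, adjusted p up to 0.0899). The distal Tbx2 region with the highest mean over the 18 samples, +10.8 kb (chr11:85843259-85843659), led the group means in Young Sham alone. It ran from 36.0 to 52.9 in Young Sham, 36.3 to 47.7 in Young Bleo, 38.3 to 60.8 in Aged Sham and 33.5 to 65.1 in Aged Bleo and passed no test. Neither did the other 2 regions, at +9.5 kb and +16.6 kb.

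Fibin encodes a secreted protein named for its part in fin bud initiation in fish, and it is expressed in aerocytes. Its 3 regions were the promoter (+18 bp, chr2:110362743-110363207) and 2 regions between genes far upstream, -87.3 kb (chr2:110450090-110450502) and -109.2 kb (chr2:110471950-110472536). The number of the 3 called was 3, 3, 3, 2 and 3 in Young Sham, 0, 0, 1 and 1 in Young Bleo, 1, 2, 2 and 1 in Aged Sham and 1 in each Aged Bleo sample. The distal windows are shown because they carry the largest strength differences of the 50 regions. Capitals in the second mark a match to AGATAAG, a motif of GATA factors.
Fibin -87.3 kb window (chr2:110450177-110450376): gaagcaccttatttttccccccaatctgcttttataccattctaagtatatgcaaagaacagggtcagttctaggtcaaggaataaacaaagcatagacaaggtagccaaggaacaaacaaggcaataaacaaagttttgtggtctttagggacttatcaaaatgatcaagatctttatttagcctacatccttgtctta
Fibin -109.2 kb window (chr2:110472126-110472325): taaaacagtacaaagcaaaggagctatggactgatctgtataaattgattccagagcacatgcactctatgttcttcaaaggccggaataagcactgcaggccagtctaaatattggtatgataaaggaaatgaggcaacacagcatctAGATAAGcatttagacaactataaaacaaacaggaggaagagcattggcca

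At Fibin -87.3 kb the strength was 45.1, 43.5, 57.5, 67.8 and 66.8 in Young Sham, on 15, 17, 20, 27 and 21 fragments at the summit. Aged Sham 2 had a peak of strength 38.4 on 10 fragments, and none of the 4 Young Bleo, the 5 Aged Bleo or the other 3 Aged Sham samples had one. The region had thus passed the filter of 2 samples only through Young Sham, the group in which it is high, which bears on each comparison with Young Sham. No sample of another group reached the Young Sham range, and Young Bleo 4, which shared the lane of Young Sham, had no peak. Strength fell by 56.1 ± 7.0 in Young Bleo (limma, adjusted p = 3.81e-04), by 46.6 ± 7.0 in Aged Sham (adjusted p = 0.00232) and by 56.1 ± 6.6 in Aged Bleo (adjusted p = 2.00e-04). Each of these strength calls held when any 1 sample was left out, but the regions were not filtered again in those runs. They therefore cannot address the selection of the region through Young Sham. Presence was lower in Young Bleo (0 of 4 against 5 of 5) and Aged Bleo (0 of 5 against 5 of 5; Fisher's exact p = 0.00794 for each) and in Aged Sham (1 of 4, exact p = 0.0476). The last presence call was lost (exact p up to 0.143) without any 1 sample other than Aged Sham 2. The difference between the bleomycin responses of Aged and Young mice was 46.6 ± 9.9, with a limma adjusted p of 0.0934. With 21050 peaks in each list the region was called in 2 Young Sham samples and in no sample of another group, and the strength difference of -17.8 did not pass in any of the 3 comparisons (limma, adjusted p = 0.264, 0.362 and 0.192 for Young Bleo, Aged Sham and Aged Bleo).

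At Fibin -109.2 kb the strength was 70.5, 73.2, 77.9, 75.4 and 74.6 in Young Sham and 0, 0, 27.1 and 54.4 in Young Bleo. Aged Sham had 64.1, 86.2, 74.3 and 61.7, and Aged Bleo had 27.5, 31.7, 74.0, 78.3 and 48.6. Young Bleo lay wholly below Young Sham, while both Aged groups overlapped it. Young Bleo 4, from the Young Sham lane, was the nearest of its group to Young Sham (54.4). Strength fell by 53.9 ± 11.7 in Young Bleo (limma, adjusted p = 0.0175), also with 21050 peaks in each list (by 56.4, adjusted p = 0.0168), where the region was called in 5 of 5 Young Sham, 0 of 4 Young Bleo, 4 of 4 Aged Sham and 2 of 5 Aged Bleo samples. The call was lost without Young Bleo 1 (-47.1, adjusted p = 0.0557) or Young Bleo 2 (-47.1, adjusted p = 0.0604), or with a -log10 q of at least 5 (-54.0, adjusted p = 0.0678). The differences of Aged Sham (-2.7 ± 11.7, adjusted p = 1.00) and Aged Bleo (-22.3 ± 11.1, adjusted p = 0.258) from Young Sham did not pass, nor did that of the 2 bleomycin responses (34.3 ± 16.6, adjusted p = 0.635).

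The Fibin promoter was called in Young Sham 1, 2, 3 and 5 (strengths of 34.0, 42.5, 60.4 and 42.0) and in Aged Sham 3 (51.5), and in no Young Bleo or Aged Bleo sample. Like -87.3 kb, it passed the filter of 2 samples only through Young Sham. Presence was lower in Young Bleo (0 of 4 against 4 of 5) and in Aged Bleo (0 of 5 against 4 of 5), with a Fisher's exact p of 0.0476 for each. The strength differences of -35.8 ± 10.9 and -35.8 ± 10.2 did not pass (limma, adjusted p = 0.0911 and 0.0650). The Young Bleo call was lost (exact p up to 0.143) without any 1 sample other than Young Sham 4, both calls were lost where peaks had to cover 50% of the region (exact p = 0.167), and with 21050 peaks in each list the promoter was not retained.

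Igfbp7 encodes a secreted insulin-like growth factor binding protein found in vascular basement membranes. Its 13 regions all lay in the gene body or across its first exon, and 2 of them, +49.8 kb and +53.3 kb, had the TSS of the neighbouring gene Polr2b as the nearest. The windows of an intron region that was called more often in Young Sham than in Aged Sham and of the intron region that rose in Aged Bleo are shown. Capitals in the first mark CAGGAAG on the minus strand.
Igfbp7 +44.3 kb window (chr5:77363698-77363897): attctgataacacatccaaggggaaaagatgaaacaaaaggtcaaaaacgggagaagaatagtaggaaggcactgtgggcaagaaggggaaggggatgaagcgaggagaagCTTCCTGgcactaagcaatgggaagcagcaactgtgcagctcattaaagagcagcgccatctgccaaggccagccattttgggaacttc
Igfbp7 +49.8 kb window (chr5:77358357-77358556): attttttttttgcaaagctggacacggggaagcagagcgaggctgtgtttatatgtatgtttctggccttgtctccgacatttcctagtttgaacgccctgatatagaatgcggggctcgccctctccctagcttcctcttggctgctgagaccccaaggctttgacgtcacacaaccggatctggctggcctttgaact

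At Igfbp7 +44.3 kb (chr5:77363561-77364011) the strength was 33.1, 33.1, 37.0, 28.1 and 0 in Young Sham, 64.5, 57.4, 43.0 and 57.9 in Young Bleo, 0 in all 4 Aged Sham samples and 55.0, 47.3, 54.0, 0 and 0 in Aged Bleo. Young Bleo lay wholly above Young Sham, and Aged Sham had no peak. Presence was lower in Aged Sham than in Young Sham (0 of 4 against 4 of 5, Fisher's exact p = 0.0476), a call lost (exact p up to 0.143) without any 1 sample other than Young Sham 5. It was also lost with a -log10 q of at least 5 (exact p = 0.167), a fold enrichment of at least 5 (0.444) or peaks that cover 50% of the region (1.00). In lists of 21050 peaks it was called in 3 of 4 Young Bleo samples, 1 of 5 Aged Bleo samples and no Sham sample, so that the Aged Sham call was lost (exact p = 1.00). Presence there differed between Young Bleo and Young Sham (exact p = 0.0476), in a region that passed the filter of 2 samples only through Young Bleo, the group in which it is high.

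Neighbouring intron regions were also called most often in Young Bleo. Igfbp7 +41.5 kb (chr5:77366347-77366816) had a strength of 33.2, 42.1, 52.9 and 42.9 in Young Bleo, 28.2 in Young Sham 4, 38.4 in Aged Sham 4 and 57.2 and 55.6 in Aged Bleo 1 and 2, and no peak elsewhere. It was called more often in Young Bleo than in Young Sham (4 of 4 against 1 of 5, Fisher's exact p = 0.0476). Igfbp7 +35.5 kb (chr5:77372333-77372790) had 42.6, 24.1, 36.1 and 36.3 in Young Bleo, 35.3 and 34.7 in Young Sham 3 and 4, and 30.3 in Aged Bleo 2. It was called less often in Aged Bleo than in Young Bleo (1 of 5 against 4 of 4, exact p = 0.0476). Both calls were lost (exact p up to 0.143) without any 1 sample other than Young Sham 4 for the first and Aged Bleo 2 for the second. The first was lost too where peaks had to cover 50% of the region, and the second with a fold enrichment of at least 5 (exact p = 0.206 for each). With 21050 peaks in each list the first was called in 1 Young Bleo and 2 Aged Bleo samples and the second was not retained.

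At Igfbp7 +49.8 kb (chr5:77357691-77358840) the strength was 56.9, 48.3, 60.9, 62.1 and 62.6 in Young Sham and 73.9, 73.1, 71.0, 71.1 and 62.8 in Aged Bleo, with 61.8 to 70.4 in Young Bleo and 66.8 to 72.7 in Aged Sham. Every Aged sample lay above every Young Sham sample, Aged Bleo 5 by the least. The rise of 12.3 ± 3.0 in Aged Bleo passed (limma, adjusted p = 0.0302), also with 21050 peaks in each list (16.6, adjusted p = 0.0150), but not when ranked among called regions only (8.1, adjusted p = 0.487) or by -log10 p (8.0, adjusted p = 0.0857). With a replicate block the rise did not pass either. It was lost without any of Young Sham 1 and 2 or Aged Bleo 1 to 4 (differences of 9.8 to 12.1, adjusted p up to 0.0663). The region at the TSS (+179 bp, chr5:77407453-77408279, first coding exon) was called in all 18 samples at 72.6 to 79.8 in Young Sham, 78.6 to 87.4 in Young Bleo, 76.4 to 82.4 in Aged Sham and 76.3 to 82.9 in Aged Bleo and passed no test. The other 8 Igfbp7 regions, of which 6 were called in 4 samples or fewer, passed neither test.

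**Figure D5:**
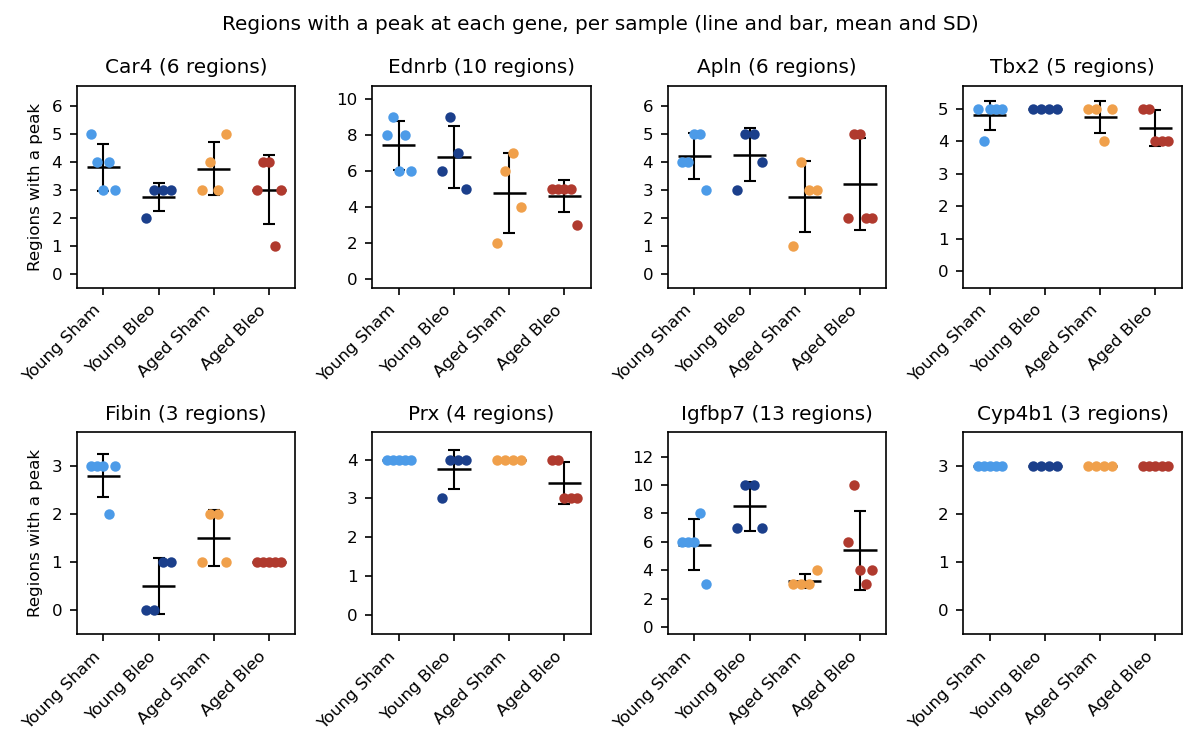
Number of regions of each gene with a peak (vertical axis) in each sample, 1 panel per gene, 1 point per sample by group with the group mean as a line and its SD as a bar. Cyp4b1 had all 3 regions in all 18 samples, whereas Fibin had 2 or 3 in each Young Sham sample and 0 or 1 in each Young Bleo sample.

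Cyp4b1 encodes a cytochrome P450 monooxygenase that is abundant in the lung. Its promoter region (-39 bp, chr4:115647531-115647989) had a strength of 67.1, 69.5, 68.1, 59.8 and 74.3 in Young Sham, 76.7, 73.2, 74.5 and 68.4 in Young Bleo, 69.1, 72.5, 71.3 and 70.7 in Aged Sham and 82.6, 81.0, 73.8, 82.7 and 79.3 in Aged Bleo. Of the Aged Bleo samples 4 of 5 lay above every Young Sham sample. Strength rose by 12.1 ± 2.6 in Aged Bleo (limma, adjusted p = 0.0154), a call that held when any 1 sample was left out and with 21050 peaks in each list (20.3, adjusted p = 0.00819). It did not pass when ranked among called regions only (11.1, adjusted p = 0.166) or by -log10 p (3.5, adjusted p = 0.154). The 248 exon-free bases up to 3 before the TSS (chr4:115647724-115647971, printed in the direction of the gene on the minus strand) are shown because the region is the 1 promoter of a single gene that rose, and capitals mark a match to TGANTCA, the AP-1 motif, at position -169 from the TSS.
Cyp4b1 promoter: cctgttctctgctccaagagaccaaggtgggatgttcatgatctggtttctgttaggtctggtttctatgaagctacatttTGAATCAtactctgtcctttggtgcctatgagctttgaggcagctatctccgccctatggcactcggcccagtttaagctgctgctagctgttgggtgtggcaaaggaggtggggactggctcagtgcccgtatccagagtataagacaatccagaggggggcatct

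The Cyp4b1 region outside the promoter with the higher mean over the 18 samples, -9.8 kb (chr4:115657246-115657858, between genes), had a strength of 50.8 to 72.2 in Young Sham, 48.7 to 65.3 in Young Bleo, 74.4 to 81.1 in Aged Sham and 31.7 to 68.0 in Aged Bleo. Aged Sham lay above all other groups without overlap. The differences of Aged Sham from Young Sham (16.9 ± 6.8, limma adjusted p = 0.252) and of Aged Bleo from Aged Sham (-22.0 ± 6.8, adjusted p = 0.298) did not pass. The +4.3 kb region in an intron, at 36.6 to 72.6 over the 18 samples, passed no test. Its group mean was above that of -9.8 kb in Young Sham (61.6 against 59.8) and Aged Bleo (56.8 against 54.7), and below it in Aged Sham (65.0 against 76.7) and Young Bleo (48.0 against 56.8).

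Car4 encodes carbonic anhydrase IV, an enzyme anchored to the outer face of the capillary membrane that interconverts carbon dioxide and bicarbonate. Its promoter region (+123 bp, chr11:84957767-84957986, overlapping the UTR of the first exon) was called in only 2 samples, Aged Sham 1 (strength 52.9, 13 fragments at the summit) and Aged Sham 4 (36.5, 14 fragments). The strongest Car4 region was +11.1 kb (chr11:84968436-84969349, between genes, downstream of Car4), and its window is shown because it is the 1 Car4 region called in every sample. Capitals mark GGGCGTG, a motif of KLF factors.
Car4 +11.1 kb window (chr11:84968927-84969126): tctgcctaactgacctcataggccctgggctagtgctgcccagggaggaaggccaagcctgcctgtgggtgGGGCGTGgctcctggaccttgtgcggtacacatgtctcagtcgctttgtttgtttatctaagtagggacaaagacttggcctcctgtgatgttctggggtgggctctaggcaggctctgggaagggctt

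At Car4 +11.1 kb the strength was 88.1, 87.4, 80.2, 89.3 and 84.1 in Young Sham, 87.1, 86.8, 82.6 and 83.1 in Young Bleo, 89.9, 87.4, 85.1 and 86.2 in Aged Sham and 91.5, 85.2, 86.8, 84.7 and 87.0 in Aged Bleo. The groups overlapped, and the region kept a peak in all 18 samples with 21050 peaks in each list. No Car4 region passed either test in any comparison. Of the other 4, +2.3 kb was called in 16 samples, a region between genes downstream (chr11:84974620-84974955) in 13, +3.2 kb in 9 and +20.4 kb in 2.

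Prx encodes periaxin, a scaffold protein best known from myelinating Schwann cells. Its regions at +9.0 kb (chr7:27507748-27508896) and +2.5 kb (chr7:27501516-27502104), both with midpoints in introns, were called in all 18 samples. Strength at +9.0 kb was 85.0 to 91.5 in Young Sham, 90.5 to 94.1 in Young Bleo, 81.7 to 93.2 in Aged Sham and 86.7 to 93.5 in Aged Bleo. The promoter region (-99 bp, chr7:27499050-27499400) had 37.9, 45.4, 43.9, 48.2 and 58.7 in Young Sham, 0, 21, 21.4 and 33.7 in Young Bleo, 58.2, 37.6, 62.1 and 48.4 in Aged Sham and 30.4, 38.1, 61.5, 67.7 and 51.0 in Aged Bleo. Young Bleo lay wholly below Young Sham and Aged Sham at the promoter, and Young Bleo 4 was below the Young Sham samples of its own lane. The difference of -27.8 ± 8.0 from Young Sham did not pass (limma, adjusted p = 0.0746), nor did the difference between bleomycin responses (26.0 ± 11.4, adjusted p = 0.635). In lists of 21050 peaks the promoter was called in 5 of 5 Young Sham, 0 of 4 Young Bleo, 3 of 4 Aged Sham and 4 of 5 Aged Bleo samples. In the full lists no Prx region passed either test. At equal list length presence at the promoter was lower in Young Bleo than in Young Sham (Fisher's exact p = 0.00794) and than in Aged Bleo (exact p = 0.0476), and Prx -5.9 kb was called in 4 of 4 Young Bleo samples against 1 of 5 Young Sham samples (exact p = 0.0476).

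Further genes of the capillary cell types were counted the same way. The regions of 10 further aerocyte genes (Chst1, Rprml, Emp2, Tbx3, Kdr, Kitl, Sirpa, Nckap5, Pmp22 and Tmcc2) numbered 96, and those of 8 general capillary genes (Gpihbp1, Aplnr, Plvap, Kit, Tek, Cd93, Cxcl12 and Sema3c) numbered 76. In Aged Sham against Young Sham, strength was lower in 3 and higher in 0 of the 96, and lower in 3 and higher in 1 of the 76, against 1.57% lower and 0.351% higher over all regions. Of the 96, 7 were called less often and 0 more often, and of the 76, 8 and 0, against 4.90% and 0.264%. In Young Bleo against Young Sham strength was lower in 4 and higher in 5 of the 96, and lower in 4 and higher in 1 of the 76, against 1.74% and 1.86%. Of the 96, 6 were called less often and 8 more often, and of the 76, 3 and 2, against 1.96% and 3.98%. In Aged Bleo against Young Sham strength was lower in 4 and higher in 1 of the 96 (4.17% and 1.04%), and lower in 9 and higher in 1 of the 76 (11.8% and 1.32%), against 2.95% and 1.08%. Of the 96, 1 was called less often and 1 more often, and of the 76, 7 and 0, against 3.01% and 0.201%. The median strength difference in that comparison was 0.91 for the 96, -7.28 for the 76 and -3.53 for the 50 regions of the 8 genes, against -1.23 over all regions. In Aged Sham against Young Sham it was 0.00, -5.37 and 0.00, against -0.85. In Young Bleo against Young Sham it was 0.00, -3.10 and 1.51, against 0.00.

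The 200-base summit windows of the 50 regions were searched on both strands for 8 motifs of endothelial and general transcription factors, 1 per factor family. The core of ERG and other ETS factors, CAGGAAG, was in 10 of the 50 windows and in 9463 of the 47338 windows of all regions. The AP-1 motif, with the letters TGANTCA, was in 5 of the 50 windows, against 8.72% of all windows. The GATA factor motif, with the letters AGATAAG, was in 3 windows, against 3.37% of all. The KLF motif, with the letters GGGCGTG, was in 3 windows, against 5.86% of all. The SOX motif, with the letters ACAATGG, was in 2 windows, against 5.63% of all. The forkhead motif GTAAACA, found in 4.43% of all windows, was in none of the 50. The same was true of the TEAD motif ACATTCC, found in 2.98% of all windows, and of the T-box motif AGGTGTGA, found in 0.418%. At least 1 motif was in 23 of the 50 windows (46.0%), against 41.6% of all windows. The windows of Ednrb, Apln and Igfbp7 each held CAGGAAG more than once across their regions, and no Tbx2, Fibin or Cyp4b1 window held it. Of the 50 windows 11 overlap an exon and are not printed. The median GC content was 51.0%, against 53.0% over all regions, from 36.5% at Fibin -87.3 kb to 74.0% at Igfbp7 +179 bp.

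The mean strength over the regions of each gene was also set beside that of every gene with at least 3 regions (5883 genes), as a description over the 18 samples, which differ in list length. The most alike genes by Spearman's rho were Mrln (0.93) and Ndst3 (0.89) for Fibin, Tmem236 (0.94) and Pon1 (0.93) for Igfbp7, and Mdfic (0.87) and Ndufaf8 (0.81) for Car4. They were Ppp1r18 (0.86) and Bbc3 (0.86) for Cyp4b1, Arid4a (0.83) and D5Ertd615e (0.81) for Ednrb, and Glrx5 (0.84) and Gemin6 (0.75) for Prx. For Apln they were Mfsd6 (0.80) and Zfp13 (0.78), and for Tbx2 Kdm6b (0.69) and C130026I21Rik (0.68). None of the 8 genes was among the 2 most alike of another. Among the 8 genes rho ran from -0.77 (Ednrb with Tbx2, and Igfbp7 with Cyp4b1) to 0.49 (Fibin with Prx).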

How the data were processed

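ATAC-seq libraries were made from sorted lung endothelial cells of 18 mice, 1 library per mouse, with groups taken from the labels. The authors aligned reads to mm10 with BWA, removed duplicate reads with Picard, and called peaks in each sample separately with MACS2 at an FDR of 1%. BWA, MACS2 and mm10 are named in the submitters' processing notes. Each deposited peak list has no header and the narrowPeak layout, and gives the fold enrichment of the summit over local background (a ratio), -log10 p and -log10 q as the authors' caller wrote them. The lowest -log10 q in any list was 2.01. The authors' score column, a rescaled -log10 q, was not used. Read counts per region were not used here, so the authors' test on counts was not repeated.

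The 593980 nuclear peaks were merged (54619 regions, of which 47338 were seen in 2 or more samples), and 19 mitochondrial peaks were left out. Regions were annotated from the 45756 RefSeq NM and NR transcripts of GRCm38.p6, the same primary assembly as mm10. Strength was fitted with limma 3.58.1 (R 4.3.3) with all 4 groups in 1 model, and presence was tested by Fisher's exact test (scipy 1.17.1, Python 3.11.15). Both scripts were tested on simulated data. P-values were Benjamini-Hochberg adjusted over all 47338 regions. Fragments at the summit were recovered from fold enrichment and -log10 p, with a background of 1.02 to 1.78 fragments. They came out whole for 99.99% to 100.00% of solved peaks (-log10 p under 250) per list. The tolerance was 0.02 fragments, or a limit in proportion to the count where that was larger. Medians of 25 to 33 fragments at the summit limit the precision, and the total depth of the libraries is unknown.

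Regions were named by rule: the promoter region of each gene, its strongest other region, and every region called by a test in any comparison. The members and lists were chosen with earlier results of these data known. Promoter sequences are from RefSeq (GRCm38.p6), which matched 7 of the 8 genes, all but Tbx2. Alternatives covered the peaks kept, the region and member rules, the strength measure, a replicate block and leaving out each sample.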

Additional observations from a re-analysis of the deposited data

Results flagged for a closer look

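In 12 of 90 groups of values, 1 sample stood apart from the rest of its group by Dixon's criterion at 95%. The values were the strengths at each named region and the number of the 50 regions called, taken within each group of mice. All 12 were strength values. Chance alone sets about 1 in 20 such groups apart, and a group in which 1 sample has a peak and the others have none is always counted. In 8 of the 12 the only peak of the group was in that sample and in a region called by the presence test. These were Ednrb -55.0 kb in Young Bleo 2 (31.4) and Aged Sham 3 (57.5), Fibin +18 bp in Aged Sham 3 (51.5), Fibin -87.3 kb in Aged Sham 2 (38.4), Igfbp7 +41.5 kb in Young Sham 4 (28.2) and Aged Sham 4 (38.4), Igfbp7 +35.5 kb in Aged Bleo 2 (30.3) and Ednrb -75.1 kb in Aged Bleo 4 (60.3). In 3 groups 1 sample lacked a peak that the others had: Apln +49.5 kb in Young Sham 1 (0.0, the next lowest 37.3), Apln +90 bp in Young Sham 5 (0.0, the next lowest 31.4) and Igfbp7 +44.3 kb in Young Sham 5 (0.0, the next lowest 28.1). Igfbp7 +49.8 kb was lowest in Aged Bleo 5 (62.8), below the 71.0 to 73.9 of the other Aged Bleo samples.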

How the results depend on the processing

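Counts of called regions moved with the processing, and are given beside the share of all regions called under the same setting in either direction unless a direction is named. With a -log10 q of at least 5 (44 regions of the 8 genes), presence in Aged Sham against Young Sham gave 2 regions (against 5.42%) and the difference between bleomycin responses gave 1 in strength (against 0.277%). With 21050 peaks kept per list, presence gave 1 region in Aged Sham and 1 in Aged Bleo against Young Sham (Tbx2 +11.9 kb in both, called more often in the Aged group, as were 1.38% and 1.10% of all 27854 regions), 7 in Young Bleo against Young Sham (3 of the 30 less often, against 3.20%, and 4 more often, against 3.69%, of which Igfbp7 +44.3 kb passed the filter of 2 samples only through Young Bleo) and 1 in Aged Bleo against Young Bleo (Prx -99 bp, more often, against 0.689%). In each of these comparisons 0 of them were among the regions called from the full lists. There strength in Aged Sham against Young Sham gave 0 by limma (against 1.35%). Presence of Ednrb -75.1 kb in Aged Bleo turned direction there, to 20 percentage points above Young Sham. With NM transcripts only as TSSs (68 regions of the 8 genes), strength gave 2, 5, 1 and 1 regions (against 1.92%, 3.60%, 0.978% and 0.228%) in Aged Sham and Young Bleo against Young Sham, Aged Bleo against Young Bleo and the difference between responses, and presence gave 9 in Young Bleo against Young Sham (against 5.94%) and 5 in Aged Bleo against Young Bleo (against 2.57%). With peaks covering 50% or more of a region, presence gave 2 of the 50 in Aged Bleo against Young Sham (against 5.94%) and 4 in Aged Bleo against Young Bleo (against 5.69%). Ranked among called regions only, strength gave 5 of the 50 in Young Bleo against Young Sham (against 3.54%) and 6 in Aged Bleo against Young Sham (against 6.57%). In the difference between responses strength gave 1 (against 0.131%). Ranked by -log10 p, it gave 5 and 4 in Young Bleo and Aged Bleo against Young Sham (against 4.86% and 6.08%) and 2 in Aged Bleo against Young Bleo (against 0.984%). The cause was not tested.

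Without 1 sample at a time, presence gave 0 to 1, 2 to 4 and 4 to 5 regions for Aged Sham, Young Bleo and Aged Bleo against Young Sham, 0 for Aged Bleo against Aged Sham and 0 to 1 for Aged Bleo against Young Bleo. Strength gave 1 to 2, 2 to 5 and 2 to 7, then 0 and 0 to 2, and 0 to 1 for the difference between responses. The labels do not say that same-numbered samples are paired, and 0 of the pairs with Young Sham correlated above 0.1 (r from -0.198 to 0.230 over all comparisons). Above 0.1 were 1 of 4 pairs of Aged Bleo with Aged Sham and 2 of 4 of Aged Bleo with Young Bleo. A replicate block lost the strength calls of Ednrb +27.9 kb in Young Bleo (adjusted p = 0.0686), Tbx2 +11.9 kb (0.0710) and Igfbp7 +49.8 kb (0.0715) in Aged Bleo.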
